A study of Mus musculus with 4 samples.

Results

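The mitochondrial genome of the mouse encodes 37 genes, and all of them were found by Ensembl ID among the 53465 gene IDs counted. They comprise 13 mRNAs, 2 rRNAs and 22 tRNAs. The IDs come from the rule for this gene set. The count table lists no gene names, and the names used here are those that Ensembl publishes for these IDs, given from general knowledge and not from a table. Positions and lengths are RefSeq's for chromosome MT of GRCm38.p6, the assembly behind mm10.

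The RNA came from Hepa 1-6, a mouse hepatocellular carcinoma line, in 4 groups of 1 library each. Cells labelled WT carried a control guide (sgcontrol), and cells labelled Usp5 Knockdown carried a guide for Usp5 (sgUsp5), a ubiquitin-specific protease. From each lysate, 10% was kept as input without antibody, and the rest was precipitated with an antibody to YTHDF1 (RNA immunoprecipitation, RIP). The labels do not say whether either line is a clone. Usp5, Ythdf1, the line's hepatocyte markers and markers of other cell types were not analysed here, because the IDs of nuclear genes were not paired with names. The labelled knockdown is therefore unchecked, and "Usp5 guide" below means the libraries so labelled.

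Mitochondrial DNA is transcribed from both strands into long precursors that span nearly the whole circle. They are cut largely at the tRNAs, which sit between the other genes like punctuation, and the released rRNAs and mRNAs have no introns. The rRNAs form the ribosome of the organelle, which translates the mRNAs into core subunits of the respiratory chain and of ATP synthase. These RNAs are made and translated inside mitochondria, whereas YTHDF1 is a cytoplasmic reader of N6-methyladenosine in mRNA.

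Mitochondrial RNA made up about 2% of the counted reads of the inputs and far less of those of the precipitates. Shares here are of all reads counted to genes in a library. All 37 genes together held 2.101% of 30804293 reads in the control input (95% Wilson interval 2.096 to 2.106) and 2.515% of 31751069 reads in the Usp5 guide input (2.509 to 2.520). In the RIP libraries they held 0.0547% of 33941019 reads with the control guide (0.0540 to 0.0555) and 0.0670% of 29898171 reads with the Usp5 guide (0.0661 to 0.0680). Both RIP shares lay far below both input shares. The intervals cover counting error only, since the reads carry no molecular identifiers, and libraries were depleted of ribosomal RNA with probes whose targets are not given.

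The 3 classes did not keep their proportions. The 13 mRNAs held 0.449% and 0.446% of reads in the control and Usp5 guide inputs, and 0.0274% and 0.0353% in the RIP libraries in the same order. The 2 rRNAs held 1.65% and 2.07% of the inputs but 0.0273% and 0.0315% of the RIP libraries. There were 3.67 and 4.63 rRNA reads for each mRNA read in the control and Usp5 guide inputs, and 0.995 and 0.894 in the RIP libraries. The rRNAs thus led in both inputs, and rRNA and mRNA reads were nearly equal in both precipitates. The 22 tRNAs together held 375 and 657 input reads, but 4 and 65 RIP reads.

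**Figure D1:**
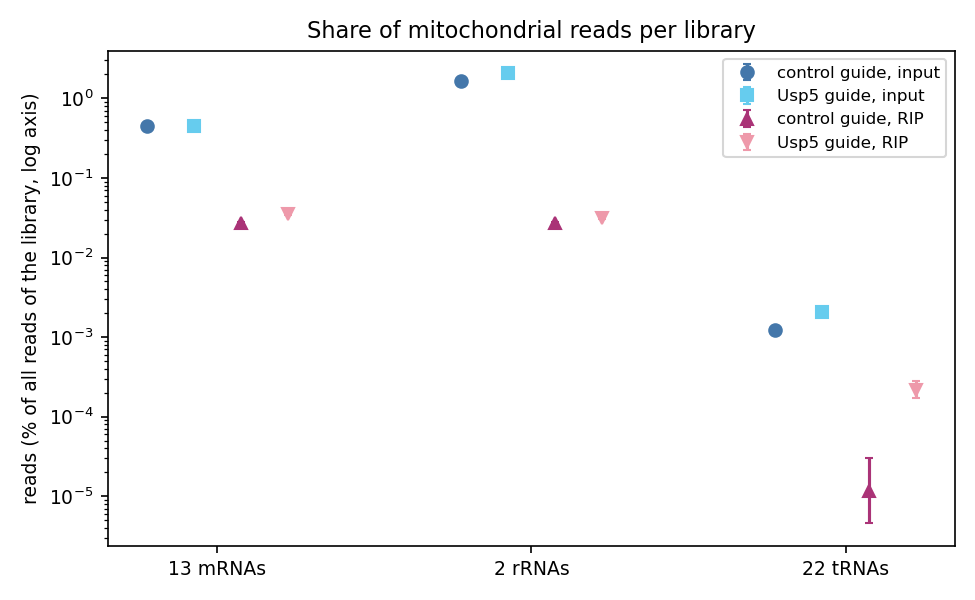
Percent of all reads of a library that were counted to genes (log axis) in the mitochondrial mRNAs, rRNAs and tRNAs, 1 point per library. Bars are 95% Wilson intervals (counting error only, mostly smaller than the points). In each class both input libraries lie above both RIP libraries, and rRNAs exceed mRNAs in the inputs (1.65% against 0.449% with the control guide) but not in the RIP libraries (0.0273% against 0.0274%).

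Levels of different genes were compared per length, as TMM-normalised CPM divided by gene length (CPM per kb). In the control input the highest mRNA by this measure was mt-Nd5, a complex I subunit, at 950 CPM per kb. It was followed by mt-Co1, the catalytic subunit of cytochrome c oxidase (745), mt-Cytb, the cytochrome b of complex III (564), and the complex I subunits mt-Nd1 (428), mt-Nd6 (384) and mt-Nd4 (326). A second tier held mt-Atp6, a membrane subunit of ATP synthase (155), mt-Nd4l (62.2), mt-Nd2 (56.0), mt-Co2 (52.9), mt-Co3 (40.9) and mt-Nd3 (31.3). The Usp5 guide input had the same 6 mRNAs at 307 or more and the others at 176 or less, with mt-Nd1 (307) and mt-Nd4 (334) trading the fourth and the sixth place. Across the 12 mRNAs other than mt-Atp8, log2 levels per kb in the inputs had Pearson's r of 0.99 and Spearman's rho of 0.97 between the guides, a description over genes that share 2 libraries. mt-Atp8, a small ATP synthase subunit, had 0 reads in both inputs and the Usp5 guide RIP, and 3 in the control RIP. It is 204 bases long and shares 43 of them with mt-Atp6.

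Of these levels, several are uncertain. The mouse nuclear genome holds a long, near-identical copy of part of the mitochondrial genome that takes in mt-Co2, mt-Atp8, mt-Atp6, mt-Co3, mt-Nd3 and mt-Nd4l and the ends of mt-Co1 and mt-Nd4 that face them. How reads with several matches were counted is not given in the sources used here. In the control input mt-Nd2, outside that copy, had 56.0 CPM per kb. The other mRNAs wholly outside it ran from 384 (mt-Nd6) to 950 (mt-Nd5). The mRNAs wholly inside it ran from 0 (mt-Atp8) to 155 (mt-Atp6). The part of the copy, and of how such reads were counted, in the low levels was not tested. mt-Nd6 lies on the strand opposite to its neighbours and overlaps mt-Nd5 by 14 bases. The handling of strand is not given either, so mt-Nd6 reads cannot be told apart from reads of RNA complementary to it. A ratio between libraries compares a gene with itself, but the mix of RNAs counted for that gene can differ between libraries.

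**Figure D2:**
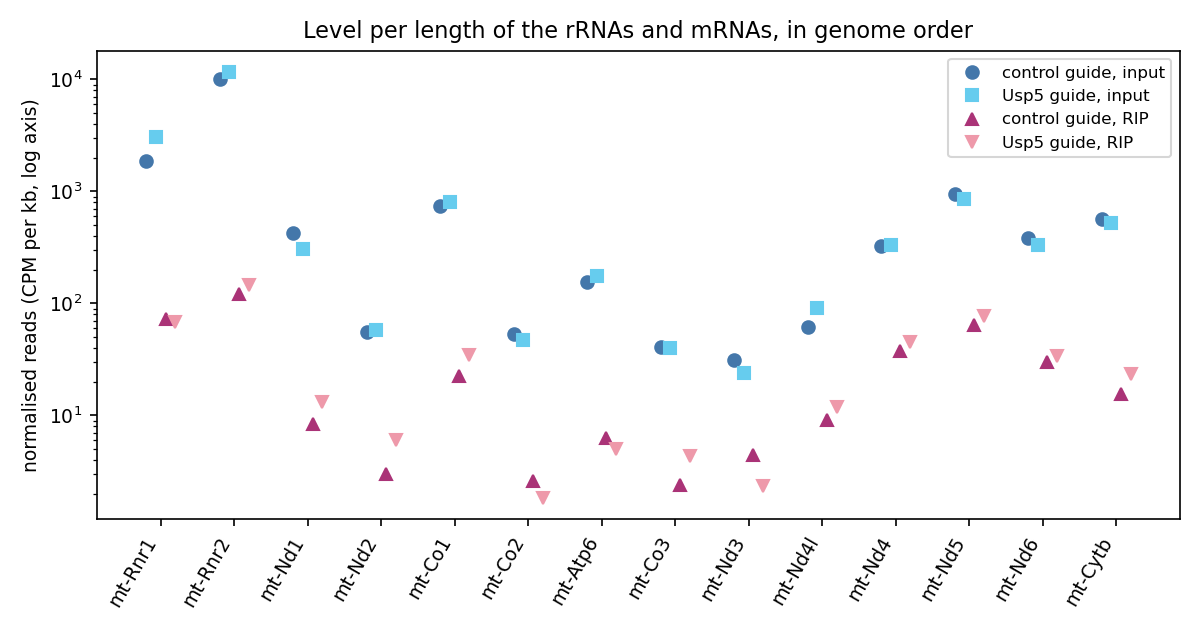
Level per length (CPM per kb, log axis) of the 2 rRNAs and the 12 mRNAs with a mean of at least 1 CPM, in the order of the mitochondrial genome, 1 point per library. For every gene shown both inputs lie above both RIP libraries, from mt-Rnr2 (10134 CPM per kb in the control input, 120 in the control RIP) to mt-Nd3 (31.3 and 4.43).

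The first comparison asked whether mitochondrial RNAs were recovered with YTHDF1. Every mitochondrial mRNA and rRNA that could be tested was lower in the RIP than in the input with both guides. The 4 libraries were fitted together, with fraction and guide as terms, by edgeR's quasi-likelihood test (1 residual degree of freedom). The p-values were adjusted by Benjamini-Hochberg over the 12927 genes whose mean reached 1 CPM. All 12 mRNAs tested fell, with edgeR adjusted p between 2.92e-07 and 0.0253, and both rRNAs fell, with edgeR adjusted p of 3.45e-07 (mt-Rnr1) and 1.47e-11 (mt-Rnr2). Of the 12927 genes tested, 11.3% were called lower and 10.1% higher by the same rule. In either direction, then, a call was common, and the sizes of the differences are given beside it. The median log2 RIP over input of the 12 mRNAs was -4.14 with the control guide and -3.40 with the Usp5 guide, beside 0.03 and 0.02 for all genes tested. Beside the test, a gene is also described by a size rule within each guide: a ratio of 2-fold or more whose 95% counting interval leaves out 1. By that rule all 12 mRNAs and both rRNAs were lower with each guide. Of all genes tested, 15.2% were lower and 18.2% higher with the control guide, and 13.8% lower and 15.8% higher with the Usp5 guide. Within a guide there is no replicate check, and no precipitate without the YTHDF1 antibody was analysed here.

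Among the 5244 abundant genes (mean of at least 5 on the log2 CPM scale), the 10 abundant members took 10 of the 12 lowest places by mean log2 RIP over input. mt-Rnr2 had the lowest place of all, and mt-Nd4 had place 12. The 2 that were not members were ENSMUSG00000100862 (mean log2 RIP over input -5.50) and ENSMUSG00000100131 (-3.59). In the order in which genes were listed, both lie in a run of tested genes from ENSMUSG00000100131 to ENSMUSG00000101249 (-4.09). All genes of that run were at -2.83 (ENSMUSG00000067736) or lower. Their IDs were not paired with names or positions, so whether they belong to the nuclear copy of mitochondrial DNA was not tested. mt-Nd2, at a mean of 32.0 CPM, lay just inside the limit, and mt-Co2 (17.9 CPM) was the next below it. Among all 12927 genes, where the lowest places hold many genes with few reads, the mRNAs and rRNAs ranked between place 20 and place 227 from the bottom.

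**Figure D3:**
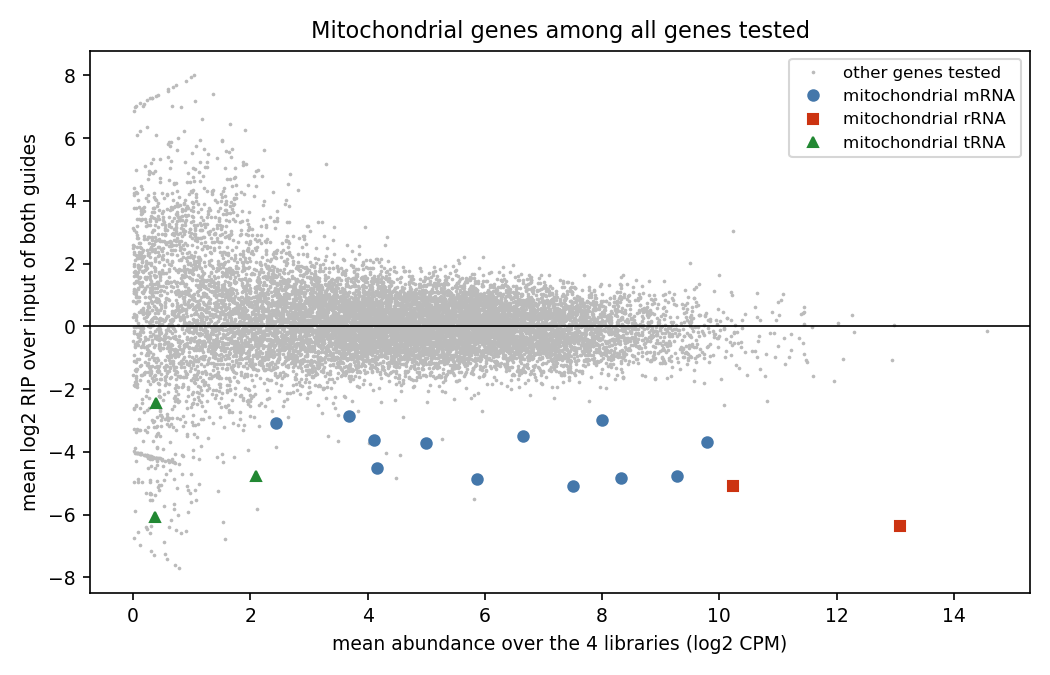
Mean log2 RIP over input of both guides against mean abundance (log2 CPM over the 4 libraries) for the 12927 genes tested, with mitochondrial mRNAs, rRNAs and tRNAs marked. The mRNAs and rRNAs lie below the bulk of the genes at every abundance, down to mt-Rnr2 at the far right, and 10 of them hold 10 of the 12 lowest places among the abundant genes.

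The rRNAs had lower ratios of RIP over input than the summed mRNAs with both guides. Pairs of values below give the control guide first and the Usp5 guide second. mt-Rnr2 (ENSMUSG00000064339, MT:1094-2675), the rRNA of the large subunit, had 457516 and 567013 input reads against 6783 and 7353 RIP reads. mt-Rnr1 (ENSMUSG00000064337, MT:70-1024), that of the small subunit, had 50929 and 89193 input reads against 2480 and 2076 RIP reads. For both genes each input exceeded each RIP library. RIP over input was 84.3-fold and 79.4-fold lower for mt-Rnr2 with the control and Usp5 guide, and 25.7-fold and 44.2-fold lower for mt-Rnr1. The difference between the subunits also showed inside each library: the inputs had 8.98 (control) and 6.36 (Usp5) mt-Rnr2 reads for each mt-Rnr1 read, and the RIP libraries had 2.74 and 3.54. These read ratios are not divided by length (1582 and 955 bases). Per kb, mt-Rnr2 had 10134 and 11650 CPM in the inputs, against 1869 and 3036 for mt-Rnr1. In the RIP libraries mt-Rnr2 had 120 and 147, against 72.8 and 68.6 for mt-Rnr1. The subunits' RNAs, which function in equal numbers in the ribosome, were thus read unequally per length in all 4 libraries, and less so in the RIP. Libraries were depleted of ribosomal RNA with probes, and the part of that step in the rRNA values was not tested.

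Summed over the 13 mRNAs, RIP over input was 18.6-fold lower with the control guide and 13.8-fold lower with the Usp5 guide. Counting intervals are too narrow for genes this abundant, since the 2 libraries of a fraction scattered far more than counting error allows. Around the abundance of mt-Nd5, for example, the median squared deviation was 189 times what counting error gives for the inputs and 123 times for the RIP libraries. Intervals widened by this scatter, which includes any change with the guide, are given below unless a counting interval is named. In the sums they were computed as for a single gene. The log2 ratio of the mRNA sum was -4.22 (widened 95% interval -4.58 to -3.86) with the control guide and -3.79 (-4.13 to -3.45) with the Usp5 guide. For the rRNA sum it was -6.10 (-6.45 to -5.75) and -6.16 (-6.51 to -5.82). The intervals of the 2 sums did not overlap with either guide, and the difference between classes was not tested. The rRNA sum consists mostly of mt-Rnr2 reads, and mt-Rnr1 lay closer to the mRNAs. With the control guide mt-Rnr1 had a log2 ratio of -4.68 (-5.36 to -4.01), whose interval overlapped that of the mRNA sum, and mt-Nd1 (-5.68), mt-Cytb (-5.19) and mt-Co1 (-5.04) had lower ratios. With the Usp5 guide its ratio of -5.47 (-6.19 to -4.74) lay below those of all 12 mRNAs, and its interval did not overlap that of the mRNA sum.

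Complex I, the NADH dehydrogenase, takes 7 of its subunits from the mitochondrial genome. mt-Nd1 (MT:2751-3707) had 11676 and 9030 input reads against 284 and 403 RIP reads, 51.3-fold and 23.1-fold lower. mt-Nd2 (MT:3914-4951) had 1660 and 1860 input reads against 112 and 200 RIP reads, 18.4-fold and 9.56-fold lower. mt-Nd5 (MT:11742-13565) had 49469 and 48160 input reads against 4185 and 4446 RIP reads, 14.8-fold and 11.2-fold lower. In all of these genes the inputs and the RIP libraries were fully apart, and mt-Nd1 was the most depleted complex I mRNA with both guides. mt-Nd4 (MT:10167-11544) had 12826 and 14147 input reads against 1864 and 1988 RIP reads, 8.60-fold and 7.33-fold lower. mt-Nd6 (MT:13552-14070) had 5682 and 5269 input reads against 550 and 559 RIP reads, 12.9-fold and 9.70-fold lower. mt-Nd4l (ENSMUSG00000065947, MT:9877-10173) had 527 and 831 input reads against 96 and 112 RIP reads, 6.83-fold and 7.61-fold lower. mt-Nd4l overlaps mt-Nd4 by 7 bases, and both were at the mild end of the mitochondrial range. mt-Nd3 (MT:9459-9806), the least read of the 12, had 311 and 257 input reads against 55 and 26 RIP reads, 7.01-fold and 10.0-fold lower. Its edgeR adjusted p of 0.0253 was the highest of the 12 and rose to 0.0567 when all genes with at least 10 reads in all were tested. The widened intervals of mt-Nd3 and mt-Nd4l lay below 0 with both guides, but those of a form used first, which divided counts by the scatter, included 0 with both.

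Complexes III, IV and V, which pass electrons on to oxygen and make ATP, rest on 6 further mitochondrial mRNAs. mt-Cytb (MT:14145-15288) had 18417 and 18287 input reads against 629 and 850 RIP reads, 36.6-fold and 22.1-fold lower. mt-Co1 (MT:5328-6872) had 32856 and 38158 input reads against 1250 and 1707 RIP reads, 32.8-fold and 23.0-fold lower. For both genes the higher RIP library lay far below the lower input. mt-Co2 (MT:7013-7696), which takes electrons from cytochrome c, had 1032 and 995 input reads against 63 and 40 RIP reads, 20.3-fold and 25.3-fold lower. mt-Co3 (MT:8607-9390), the other core subunit of complex IV, had 914 and 966 input reads against 67 and 108 RIP reads, 16.9-fold and 9.17-fold lower. mt-Atp6 (MT:7927-8607) had 3013 and 3678 input reads against 153 and 108 RIP reads, 24.5-fold and 34.9-fold lower. mt-Co2 and mt-Atp6 were lower in the RIP by more with the Usp5 guide, and mt-Co1, mt-Co3 and mt-Cytb by more with the control guide.

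The mRNAs therefore differed among themselves in how far they fell. The complex I mRNAs, summed, had a log2 ratio of -3.84 (widened interval -4.26 to -3.43) with the control guide and -3.41 (-3.81 to -3.00) with the Usp5 guide. For mt-Cytb of complex III it was -5.19 (-6.12 to -4.27) and -4.47 (-5.28 to -3.66), and for complex IV -4.98 (-5.84 to -4.12) and -4.48 (-5.22 to -3.73). For complex V, almost wholly mt-Atp6 reads, it was -4.59 (-5.79 to -3.39) and -5.13 (-6.53 to -3.72). Complex V thus had the lowest ratio of the 4 complexes with the Usp5 guide, and was the only one whose ratio was lower with that guide than with the control guide, by -0.54 (-2.38 to 1.31), an interval that includes 0. With the control guide the interval of complex I ended just short of that of mt-Cytb (-4.26 against -4.27), and under the form of the interval used first the 2 overlapped. It overlapped those of complexes IV and V, and with the Usp5 guide it overlapped all 3. The difference was not one of complexes alone, since mt-Nd1 was at least as depleted as mt-Cytb with either guide. Along the genome, the 5 consecutive mRNA genes from mt-Nd3 to mt-Nd6 were the 5 least depleted with the control guide (log2 ratios -3.89 to -2.77), and mt-Cytb beyond them was again among the most depleted. With the Usp5 guide mt-Co3 (-3.20) and mt-Nd2 (-3.26) lay among these genes, which ran from -3.48 to -2.87. This stretch was picked after the values were seen and is not tested. It holds mt-Nd3, mt-Nd4l and an end of mt-Nd4, which the nuclear copy takes in, and mt-Nd6, whose strand is uncertain. The part of these in the ratios was not tested.

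**Figure D4:**
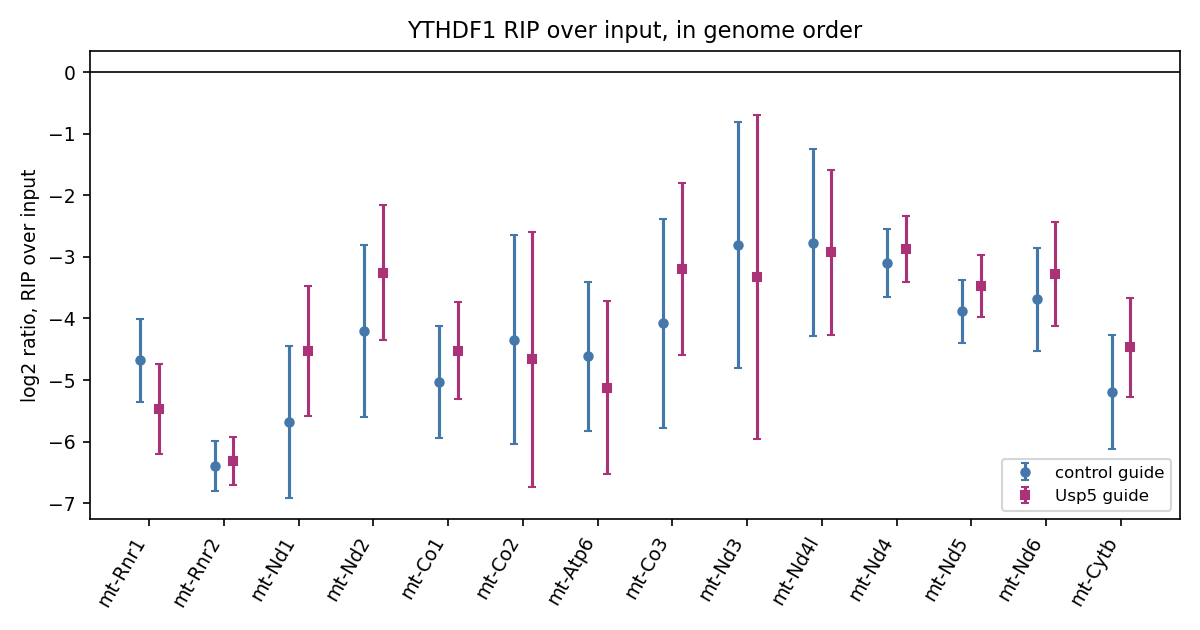
Log2 ratio of RIP over input for the 2 rRNAs and 12 mRNAs, in the order of the mitochondrial genome, for the control and the Usp5 guide. Bars are 95% intervals widened by the scatter between libraries, and every bar lies below 0, from mt-Rnr2 at -6.40 (control guide) to mt-Nd4l at -2.77.

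The pattern was similar with both guides. Over the 12 mRNAs, log2 RIP over input had Pearson's r of 0.79 and Spearman's rho of 0.73 between the guides, which share no library. Between mean log2 RIP over input and gene length r was -0.26, and between it and the level per kb in the inputs r was -0.38. The inputs enter both sides of the latter, which by itself can make r negative. All these correlations are descriptions over 12 genes with no test. The make-up of the mRNA reads shifted accordingly: mt-Nd4 held 9.27% and 9.99% of mitochondrial mRNA reads in the control and Usp5 guide inputs, and 20.0% and 18.8% in the RIP libraries. mt-Nd5 held 35.7% and 34.0% of the inputs' mRNA reads and 44.9% and 42.2% of the precipitates', and mt-Co1 23.7% and 26.9% against 13.4% and 16.2%. In all 4 libraries mt-Nd5 was the most read of the 13.

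The tRNAs were barely captured. They are between 59 and 75 bases long, and bead selection followed fragmentation of the RNA. The part of either in their low counts was not tested. Of the 22, 13 had a read in any library, all of these in an input, and 4 had a read in a RIP library. mt-Tf, mt-Tl1, mt-Tn, mt-Tc, mt-Tk, mt-Tr, mt-Th, mt-Ts2 and mt-Tl2 had 0 reads throughout, which allows up to 3 reads in each library. Another 10 had reads but a mean under 1 CPM. Among them, mt-Tq had 33 and 46 input reads against 0 and 12 RIP reads, and mt-Te had 64 reads in the Usp5 guide input and 0 elsewhere. In the inputs mt-Tg had 4 and 6 reads, mt-Tm 0 and 4, mt-Tv and mt-Td 0 and 1 each, and mt-Ti 1 and 0. All of these had 0 RIP reads. mt-Ts1, mt-Tw and mt-Ta are given with the guide comparison below.

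The other 3 passed the filter, mt-Ty and mt-Tt only through the Usp5 guide input (4.97 and 4.36 CPM). That filter favours a low RIP over input with the Usp5 guide for both, so their low ratios there are no support for depletion. mt-Tp, the tRNA for proline, had 279 and 198 input reads against 3 and 27 RIP reads. It was lower in the RIP in the test over both guides (edgeR adjusted p = 0.0355, fitted log2 change -4.66), but not in 4 of 8 other settings, where its adjusted p was up to 0.0804. Its 3 reads in the control RIP put its ratio at -6.62 on the log2 scale (-12.7 to -0.53, widened), against -2.89 (-5.50 to -0.29) with the Usp5 guide. Under the form of the interval used first, both included 0. mt-Ty, the tRNA for tyrosine, had 6 and 153 input reads and 0 reads in either precipitate. With 3 reads allowed per RIP library and the input reads taken as exact, it was at least 2.50-fold lower with the control guide. With the Usp5 guide, whose input alone carried it past the filter, it was at least 52.5-fold lower on the same terms. The widened intervals of mt-Ty included 0 with both guides (-24.5 to 16.8 and -26.1 to 9.52). The edgeR adjusted p of mt-Ty was 0.106. mt-Tt, for threonine, had 2 and 134 input reads against 0 and 25 RIP reads, with an edgeR adjusted p of 0.451.

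The next comparison asked whether mitochondrial RNA differed in cells with the Usp5 guide. In bulk RNA, fewer mitochondria and less RNA in each cannot be told apart, and with 1 lysate per guide no test is given. No mRNA or rRNA changed by 2-fold between the inputs. By the size rule 12.4% of all genes tested were higher and 12.2% lower there. The mRNA sum had 138383 reads in the control and 141638 in the Usp5 guide input, a log2 ratio of -0.07 (widened interval -0.23 to 0.08). The 12 mRNAs had log2 ratios between -0.48 (mt-Nd1) and 0.55 (mt-Nd4l), 5 above and 7 below 0, with a median of -0.07 beside -0.01 for all genes tested. mt-Co3, at -0.03, turned to 0.036 when library totals replaced TMM factors. mt-Nd1 was the only mRNA of the 12 whose widened interval lay on 1 side of 0 (-0.88 to -0.08).

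The rRNAs had more reads in the Usp5 guide input. Their sum was 508445 reads in the control and 656206 in the Usp5 guide input, a log2 ratio of 0.26 (widened interval 0.18 to 0.34). The ratio was 0.70 for mt-Rnr1 (0.48 to 0.92) and 0.20 for mt-Rnr2 (0.12 to 0.28), both under 2-fold. Between the inputs, log2 ratios of the 5244 abundant genes had quartiles of -0.26 and 0.21 and a standard deviation of 0.41. The ratios of mt-Rnr2 and of the sum were smaller than that standard deviation, so ratios of their size were common, although their intervals left out 0. Ribosomal RNA was removed with probes before sequencing, and the part of that step in these ratios was not tested. In the RIP libraries mt-Rnr1 had a log2 ratio of -0.09 (-1.05 to 0.88) and mt-Rnr2 of 0.29 (-0.27 to 0.85).

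Between the RIP libraries, 9 of the 12 mRNAs had a higher level with the Usp5 guide. The mRNA sum had 9311 and 10547 reads, a log2 ratio of 0.35 (widened interval -0.12 to 0.82), or 1.28-fold. The single mRNA past the size rule was mt-Nd2, with 112 and 200 reads and a log2 ratio of 1.00 (widened interval -0.60 to 2.61). Of all genes tested, 4.53% were called higher by the size rule and 4.64% lower. Among the 5244 abundant genes, mt-Nd2 included, 4 were called higher and 5 lower. With 2 counts added the ratio of mt-Nd2, 0.99, fell short of the rule. mt-Nd3 lay at the other end with 55 and 26 reads, a log2 ratio of -0.90 (-3.60 to 1.80). The median of the 12 was 0.33, beside -0.01 for all genes. All 12 widened intervals included 0.

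**Figure D5:**
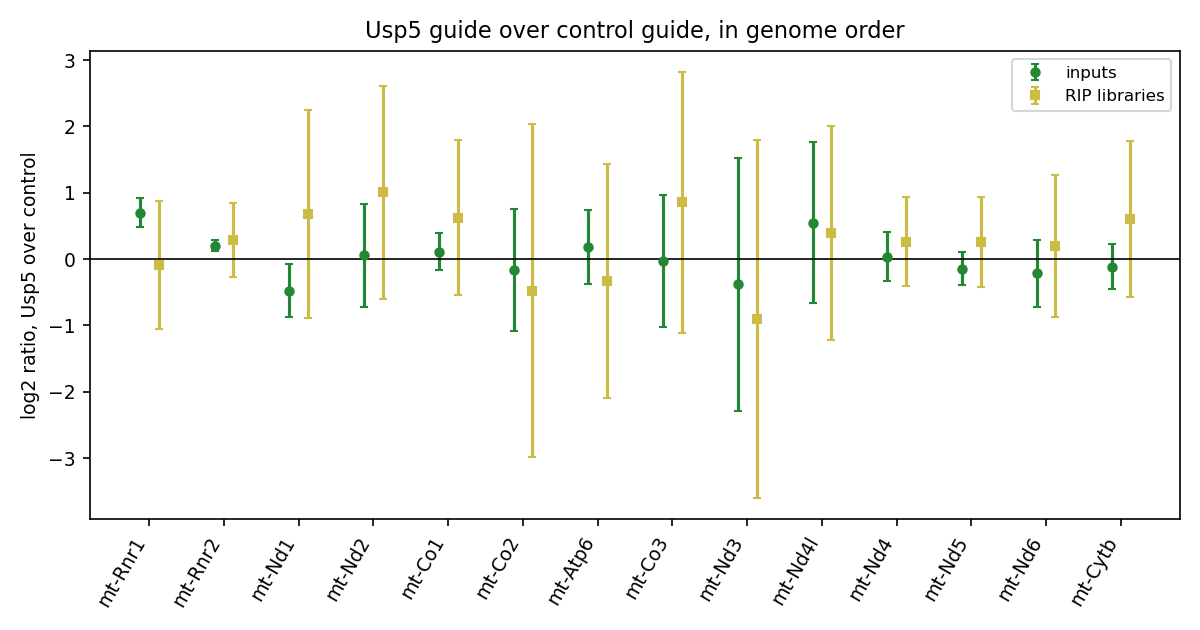
Log2 ratio of the Usp5 guide over the control guide in the inputs and in the RIP libraries for the 2 rRNAs and 12 mRNAs, in the order of the mitochondrial genome, with 95% intervals widened by the scatter between libraries. Input ratios lie between -0.48 and 0.70, RIP ratios spread from -0.90 to 1.00, and the intervals of all RIP ratios include 0.

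The difference in RIP over input between the guides, taken as the log2 ratio of enrichments, was positive for 8 and negative for 4 of the 12 mRNAs. For the mRNA sum it was 0.43 (widened interval -0.07 to 0.92), and for the rRNA sum -0.06 (-0.56 to 0.43). mt-Nd1 passed 2-fold, with a ratio of 1.15 (counting interval excluding 0, widened interval -0.46 to 2.77), where 13.4% of all genes were called higher and 13.8% lower. Among the 5244 abundant genes, 87 were called higher and 70 lower. mt-Nd1 had the lowest input ratio of the 12 (-0.48) and a ratio of 0.67 in the RIP libraries. mt-Rnr1 had the lowest ratio of the mRNAs and rRNAs, at -0.79 (-1.78 to 0.21). This ratio uses all 4 libraries and leaves no residual degree of freedom, so it has no test.

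Among tRNAs the guides differed in a few genes with few reads. Of the 22, 5 passed the size rule as higher in the Usp5 guide input and 1 as lower, beside the 12.4% and 12.2% of all genes tested. Those higher were mt-Ty (6 and 153 reads), mt-Tt (2 and 134), mt-Te (0 and 64), mt-Ts1 (10 and 44) and mt-Tw (0 and 6), and the lower one was mt-Ta (40 and 0). mt-Ty and mt-Tt reached a mean of 1 CPM only through the Usp5 guide input, so their direction between the inputs follows from that filter, and the other 4 did not reach it. In the RIP libraries 3 tRNAs passed the rule as higher with the Usp5 guide and 0 as lower, beside the 4.53% and 4.64% of all genes. They were mt-Tt (0 and 25 reads), mt-Tp (3 and 27) and mt-Tq (0 and 12). The tRNA sum was higher there too (4 and 65 reads, log2 ratio 4.02). The widened intervals of all of these included 0 (for the sum, -2.14 to 10.2). For tRNAs with a mean under 1 CPM the scatter was that of genes near 1 CPM, and it includes any change with the guide. Intervals this wide, such as -33.6 to 47.5 for mt-Te between the inputs, cannot decide whether these tRNAs differed.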

How the data were processed

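A table of raw read counts by Ensembl gene ID was deposited, with a column for each of the 4 libraries. Per the submitters' processing notes, HISAT2 2.1.0, featureCounts 1.6.3 and mm10 were used. Not given in the sources used here are the annotation release and how strand and reads with several matches were handled. Per the labels' protocols, RNA was fragmented, depleted of rRNA, reverse transcribed with random primers and amplified by PCR. Library totals, the sums of the reads counted to genes, lay between 29898171 and 33941019. In CPM, 3 reads, the limit allowed by a count of 0, are 0.0884 to 0.100. The number of unassigned columns was 0.

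The reference table (49997 genes, GRCm38.p6) paired 0 Ensembl IDs with names. Member names were therefore given from general knowledge of Ensembl's identifiers. All 37 have a RefSeq entry on chromosome MT, matched by symbol. The 13 fixed lists of nuclear genes and markers could not be matched.

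TMM factors were 0.926, 0.969, 1.05 and 1.06 for control input, Usp5 guide input, control RIP and Usp5 guide RIP, and genes whose mean reached 1 CPM were tested (edgeR 4.0.16, R 4.3.3). Input and RIP of a guide come from 1 lysate, so the guide was a block. A lysate is 1 replicate, so p-values cover only these libraries. Log2 ratios have 0.5 counts added and Clopper-Pearson counting intervals. Widened intervals multiply each count's variance by the scatter between the 2 libraries of its fraction over the 500 genes nearest in abundance, and treat a sum as 1 gene. Their form was settled after values of these data were seen, in place of a first form that divided each count by that scatter, and simulated data were not used to test either form. On simulated counts for RIP against input (12927 genes), the test called 62 of 100 genes made to differ 4-fold, 90 of 100 made to differ 16-fold and 3 of 12727 left unchanged. The members, lists and tests were chosen with earlier results of these data known. All members are accounted for, and those with a mean of at least 1 CPM have their values in every library. DESeq2 1.42.0 was an alternative.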

Additional observations from a re-analysis of the deposited data

How the results depend on the processing

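The mRNA and rRNA sums kept their direction and their side of the size rule under library totals, upper-quartile factors, DESeq2 size factors, TMM factors without the 37 members, 2 counts added and widened intervals, and the mRNA sum also without mt-Nd5. In RIP against input, 15 members were called lower. With guide as a block but library totals 14 were, without the replicate block 14, with DESeq2's Wald test 16, with a mean of at least 5 CPM 14 of 14 tested, and with at least 10 reads or 1 read in all 13. mt-Nd3 and mt-Tp lost their calls in both of the last settings, and no mRNA or rRNA but mt-Nd3 lost its call in any of the 9 settings. Leaving out 1 library leaves no residual degree of freedom for that fit. The widened interval ended the call of the tRNA sum between the RIP libraries (log2 4.02), and with it 0 members had a ratio of enrichments past the size rule in place of 2. Without the mt rRNAs in the denominator the mRNA share was 0.457% in the control and 0.456% in the Usp5 guide input. With library totals mt-Co3 turned from -0.03 to 0.036 between the inputs, and with 2 counts added the ratio of enrichments of mt-Tt turned from 0.02 to -1.29. An alternative added after the data were seen is the form of the widened interval used first, in which counts were divided by the scatter. It was replaced because, in RIP over input, 4 of 17 members with the control guide and 7 with the Usp5 guide had intervals that left out their own estimate. Under it 12 members passed the size rule as lower with each guide, in place of 15. mt-Nd3, mt-Nd4l and mt-Tp lost their calls with both guides, and so did the tRNA sum with the Usp5 guide (log2 -3.37). The call of the tRNA sum between the RIP libraries (4.02) was lost under both forms, and 0 members had a ratio of enrichments past the rule. The 22 tRNAs together had between 4 and 657 reads in a library and mt-Atp8 between 0 and 3, so their ratios are imprecise, and why the reads are few was not tested.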

Other observations

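The tRNA reads fell mostly on genes encoded on the strand opposite to most mitochondrial genes, a list of 8 of the 22 tRNAs (mt-Tq, mt-Ta, mt-Tn, mt-Tc, mt-Ty, mt-Ts1, mt-Te and mt-Tp). These held 368 of 375 tRNA reads in the control input (98.1%, 95% exact binomial interval 96.2 to 99.2) and 505 of 657 in the Usp5 guide input (76.9%, 73.4 to 80.0). In the RIP libraries they held 4 of 4 reads with the control guide and 40 of 65 with the Usp5 guide (61.5%, 48.6 to 73.3). In the control input mt-Tp alone held 279 of these reads, and in the Usp5 guide libraries the rest came mainly from mt-Tt, the neighbour of mt-Tp on the other strand, with 134 reads in the input and 25 in the RIP. The intervals cover counting error only, and the strand from which the reads came is not known.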
